A study of Mus musculus with 16 samples.

Results

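The genes described here encode the subunits of potassium channels, taken as every gene whose symbol begins with *Kcn* followed by letters and a number. Among 35556 probe sets on the array, 91 carried the symbol of 1 such gene alone, and they gave 88 genes of the 19938 genes with a probe set of a single symbol. A gene with more than 1 probe set was represented by its brightest, judged by the mean of the 16 samples. The 3 antisense or opposite-strand transcripts *Kcnd3os*, *Kcnmb4os1* and *Kcnmb4os2* were left out. By structure and partners the genes fell into 25 voltage-gated subunits, 10 electrically silent subunits, 8 subunits grouped as calcium- or sodium-activated (*Kcnu1* included), 15 inward rectifiers, 14 subunits of the 2-pore-domain family and 16 auxiliary subunits.

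The RNA of first tooth germs was hybridized to Affymetrix Mouse Gene 1.0 ST arrays, with germs microdissected from C57Bl6 mouse embryos at E14.5, the cap stage, when the epithelium folds around the condensed mesenchyme of the future pulp. The 16 samples were 8 of mandibular molars, 4 of lower incisors and 4 of maxillary molars, none of them treated or carrying a named mutation. Each sample was RNA from a pool of 4 whole tooth germs on 1 array. Which embryos or litters made up a pool is not given in the sources used here, so p-values measure the spread between these pools. In whole germs, fewer cells of a type and less RNA per cell cannot be told apart.

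The tooth labels were checked with genes that separate tooth types. *Barx1*, a homeobox gene of molar mesenchyme, averaged 11.31 ± 0.12 in mandibular molars (SD, n = 8), 8.25 ± 0.44 in lower incisors and 11.54 ± 0.11 in maxillary molars (SD, n = 4 each), on the log2 scale of the array signal. *Isl1*, a homeobox gene of incisor epithelium, averaged 6.21 ± 0.26 in mandibular molars, 8.54 ± 0.10 in lower incisors and 6.16 ± 0.20 in maxillary molars. These 2 genes separate molars from incisors but not the molars of the 2 jaws. *Nkx2-3*, which the paper cites as already known to differ between lower and upper molars, averaged 8.28 ± 0.16 in mandibular and 6.61 ± 0.07 in maxillary molars. The median log2 signal of a sample lay between 6.80 and 6.99, and 76.1% to 79.2% of its probe sets were above 5. The labels name no sets, but in their values mandibular molars 5 to 8 were closer to maxillary molars than to mandibular molars 1 to 4. Over all probe sets their correlations with maxillary samples were 0.9924 to 0.9959 (median 0.9942) and with mandibular molars 1 to 4 they were 0.9844 to 0.9913 (median 0.9898). Those of mandibular molars 1 to 4 with incisors, 0.9824 to 0.993 (median 0.9902), overlapped those with mandibular molars 5 to 8, so placing the incisors with mandibular molars 1 to 4 rests on less. Among mandibular molars 1 to 4 themselves they were 0.9811 to 0.9934 (median 0.991), much like those with incisors. Among mandibular molars 5 to 8 they were 0.9929 to 0.9961 (median 0.995), so the first of these sets is the looser. Here the first sample set means mandibular molars 1 to 4 together with the incisors, and the second means mandibular molars 5 to 8 together with the maxillary molars. What set them apart is not given in the sources used here. Marker lists were read for the tissues a germ can hold. The mean log2 level of 8 dental mesenchyme markers was 10.42 to 10.84 in mandibular molars, 9.78 to 10.18 in lower incisors and 10.88 to 11 in maxillary molars, with 5 of 8 called higher in mandibular molars than in incisors. Those called include *Lhx6* and *Dlx1*, which the paper lists as already known to differ between molars and incisors. *Msx1*, *Bmp4* and *Prrx1* were not called, with log2 differences of 0.16, 0.03 and 0.04, against 2.24 for *Lhx6*. This mean therefore cannot separate the amount of dental mesenchyme from tooth type. The mean log2 level of 7 keratinizing epithelium markers was 6.45 to 7.54 in mandibular molars, 7.41 to 7.87 in lower incisors and 6.69 to 7.39 in maxillary molars, with 3 of 7 called lower in mandibular molars than in incisors. The mean log2 level of 12 skeletal muscle markers was 7.32 to 8.62 in mandibular molars, 8.37 to 8.52 in lower incisors and 6.53 to 6.96 in maxillary molars. That of 10 cartilage markers was 7.11 to 7.36 in mandibular molars, 7.53 to 8.54 in lower incisors and 7.16 to 7.26 in maxillary molars, and that of 11 neuron markers was 6.84 to 7.36, 7.06 to 7.24 and 6.75 to 6.92 in the same order. The part of these lists in the differences of potassium channel genes was not tested.

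Potassium channels let potassium ions leave or enter the cell down their gradient and so set the resting membrane potential and end action potentials. Voltage-gated subunits assemble as tetramers that open on depolarization, and silent subunits form no channel of their own but change the channels they join. Inward rectifiers and 2-pore-domain channels carry the current at rest, calcium- or sodium-activated channels tie potassium efflux to other ions, and auxiliary subunits alter gating or delivery to the membrane. In embryos, mutations of several of these genes disturb the patterning of the face and limbs, with *Kcnj2* and craniofacial and dental anomalies the best known case.

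Most potassium channel genes gave low signals. The mean log2 level of the 88 genes ran between 4.43 and 10.23 with a median of 6.38, against a median of 7.51 over all 19938 genes. Of the 88 genes, 78 exceeded 5 in all 16 samples, 32 had a mean above 7 and only *Kcnip3* and *Kcnh1* had a mean above 9. Signals of different genes come from different probes, so these levels order the genes only roughly. By class the median of the gene means was lowest in inward rectifiers, at 5.73, and lay between 6.56 and 6.67 in the other classes. For voltage-gated subunits the medians were 6.60 in mandibular molars, 6.67 in lower incisors and 6.66 in maxillary molars, and for silent subunits they were 6.62, 6.37 and 6.56 in the same order. The median of only 10 silent subunits can move with a single gene. Of them only *Kcnv1* was called between mandibular molars and lower incisors, so these medians show no shift of the class.

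**Figure D1:**
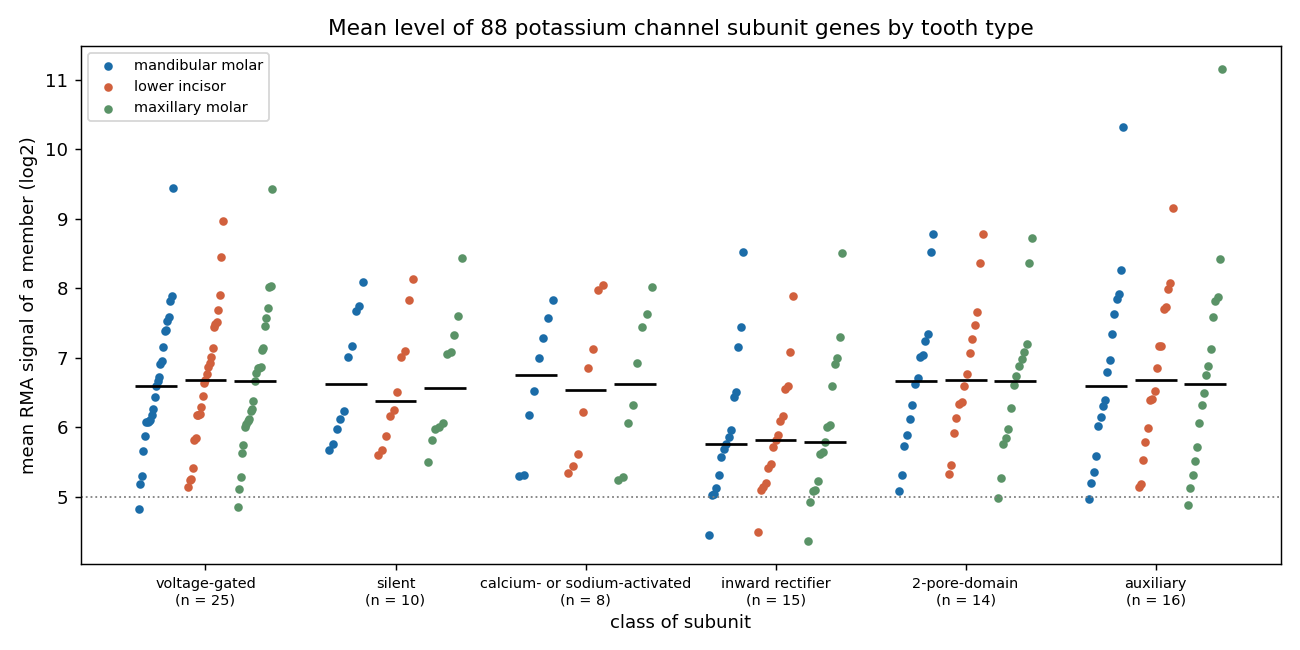
Each point is the mean RMA signal (log2, vertical axis) of 1 of 88 potassium channel genes in 8 mandibular molar, 4 lower incisor or 4 maxillary molar samples, by class of subunit (horizontal axis). Black bars mark the median of a class and the dotted line a signal of 5. Inward rectifiers have the lowest median, 5.73 over all samples, and the highest point is *Kcnip3* among the auxiliary subunits.

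The 8 genes with the highest means came from all 6 classes. *Kcnip3*, a calcium-binding partner of Shal channels also known as the transcriptional repressor DREAM, had a mean of 10.23 and stood above 90.6% of all probe sets. It was followed by *Kcnh1*, an ether-a-go-go channel, at 9.32, and by the 2-pore-domain genes *Kcnk6* at 8.76 and *Kcnk1* at 8.44. Next came *Kcnj8*, the pore of an ATP-sensitive channel of vessel walls, at 8.36, *Kcnmb4*, a beta subunit of the large-conductance calcium-activated channel, at 8.26, the silent subunit *Kcng1* at 8.19 and the small-conductance calcium-activated channel *Kcnn3* at 7.93. At the other end, *Kcnj6* was at or below 4.57 in every sample and was the only one of the 88 genes left out of both comparisons of tooth types by the limit of 5.

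Probe sets entered a comparison if any sample in it exceeded 5 on the log2 scale. Differences are log2 fold changes, positive where mandibular molars were higher, from moderated linear models (limma) with Benjamini-Hochberg adjustment over all probe sets kept. To pass, a gene needed a fold change over 1.2 and an adjusted p below 0.1.

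The first comparison asked which genes distinguish molars from incisors of the same jaw. Among the 87 potassium channel genes tested, 8 were higher and 6 were lower in mandibular molars than in lower incisors. The 6 include *Kcnh7*, which entered the test only through the incisor samples. Of all 29258 probe sets tested, 2.75% were called higher and 2.18% lower by the same rule, and of the 17309 genes with a single symbol tested 3.91% and 3.09%. Voltage-gated subunits moved both ways, with 4 of 25 higher and 4 lower. Of the inward rectifiers 2 of 14 were higher, of the silent subunits 1 of 10, and of the calcium- or sodium-activated subunits 1 of 8 was higher and 1 lower. In the 2-pore-domain family 1 of 14 was lower, and none of the 16 auxiliary subunits passed by limma on these samples or by the methods' t-test, with 4 at an unadjusted p under 0.05 by limma. Among them *Kcnip3* passed when all 3 tooth types were fitted together (1.16, adjusted p = 0.0512), and *Kcnab1* with the sample set as a block (-0.44, adjusted p = 0.0987). Of the 14 genes that passed, *Kcna4*, *Kcnj3* and *Kcnt2* (higher) and *Kcna1* and *Kcnh5* (lower) also passed among samples of the first set alone, with 4 samples a group. Only *Kcnv1* was past a fold change of 2, a limit that 0.284% of probe sets passed upward and 0.222% downward.

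The Shaker family of voltage-gated channels held genes that moved in opposite directions. *Kcna4*, which gives a rapidly inactivating current, had its lowest, median and highest log2 signal at 5.98, 6.06 and 6.24 in mandibular molars, and 5.28, 5.24, 5.47 and 4.99 in lower incisors. Every mandibular molar sample was above every incisor sample (log2 fold change 0.84, SE 0.08, adjusted p = 6.37e-05). *Kcna1*, a delayed rectifier of axons, was at 7.36, 7.63 and 7.73 in mandibular molars, against 8.35, 8.68, 8.34 and 8.43 in lower incisors. All molar samples were below all incisor samples (log2 fold change -0.87, SE 0.09, adjusted p = 9.28e-05). *Kcna5*, another delayed rectifier, was at 5.60, 5.90 and 6.01 in mandibular molars and at 6.09, 6.29, 6.45 and 6.31 in lower incisors, again without overlap (log2 fold change -0.41, SE 0.08, adjusted p = 0.0166). The difference of *Kcna4* among samples of the first set was 0.81 (adjusted p = 0.00679) and that of *Kcna1* -0.95 (adjusted p = 0.00338), whereas *Kcna5* had -0.45 and no longer passed (adjusted p = 0.132). Of the 12 skeletal muscle markers 5 were lower in mandibular molars than in incisors, and of 11 neuron markers 1 was higher and 2 were lower. Their part in the differences of *Kcna1* and the other Shaker genes was not tested.

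Of the Shal family, channels of transient currents, *Kcnd3* and *Kcnd2* were higher in mandibular molars and *Kcnd1* was not called (log2 fold change 0.09, adjusted p = 0.643). *Kcnd3* was at 7.15, 7.76 and 8.53 in mandibular molars and at 6.87, 7.01, 6.84 and 6.76 in lower incisors. The groups did not overlap, although molars 1 and 2 lay close to the incisors (log2 fold change 0.94, SE 0.22, adjusted p = 0.0357). *Kcnd2* was at 5.95, 6.22 and 6.63 in mandibular molars and at 5.62, 5.94, 5.98 and 5.81 in lower incisors, with overlap (log2 fold change 0.42, SE 0.12, adjusted p = 0.0908). Neither passed within the first sample set, with 0.59 (adjusted p = 0.136) for *Kcnd3* and 0.46 (adjusted p = 0.144) for *Kcnd2*. The call of *Kcnd3* was lost without lower incisor 3 (adjusted p = 0.108), and that of *Kcnd2* in 9 of 12 fits that left out 1 sample (adjusted p 0.103 to 0.259 in those), those without any 1 of the 4 incisor samples or mandibular molar 1, 3, 4, 7 or 8. *Kcnd2* also lost its call by the methods' t-test (adjusted p = 0.136), with no limit on low signals (adjusted p = 0.102), in the fit of all tooth types (adjusted p = 0.148) and with the sample set as a block (adjusted p = 0.316).

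Ether-a-go-go channels also moved both ways. *Kcnh1*, whose mutations in people cause a syndrome with small or absent nails, was at 9.27, 9.39 and 9.83 in mandibular molars and at 8.75, 9.31, 8.94 and 8.85 in lower incisors. Only lower incisor 2 reached into the molar range (log2 fold change 0.48, SE 0.12, adjusted p = 0.047), and the call was lost without lower incisor 1 (adjusted p = 0.167) or 3 (adjusted p = 0.135). It did not pass within the first sample set (0.48, adjusted p = 0.324). *Kcnh5*, its closest relative, went the other way, at 5.92, 6.17 and 6.34 in mandibular molars and at 6.83, 6.81, 6.66 and 6.79 in lower incisors. The groups stood apart (log2 fold change -0.60, SE 0.08, adjusted p = 0.000678), also within the first sample set (-0.53, adjusted p = 0.0153). *Kcnh7*, an erg-type channel of neurons, was at 4.68, 4.81 and 4.99 in mandibular molars and at 5.57, 5.12, 5.68 and 5.26 in lower incisors, without overlap (log2 fold change -0.59, SE 0.10, adjusted p = 0.0053). It entered the test only through the incisor samples, since all 8 molar samples were below 5, and it did not pass within the first sample set (-0.60, adjusted p = 0.105).

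**Figure D2:**
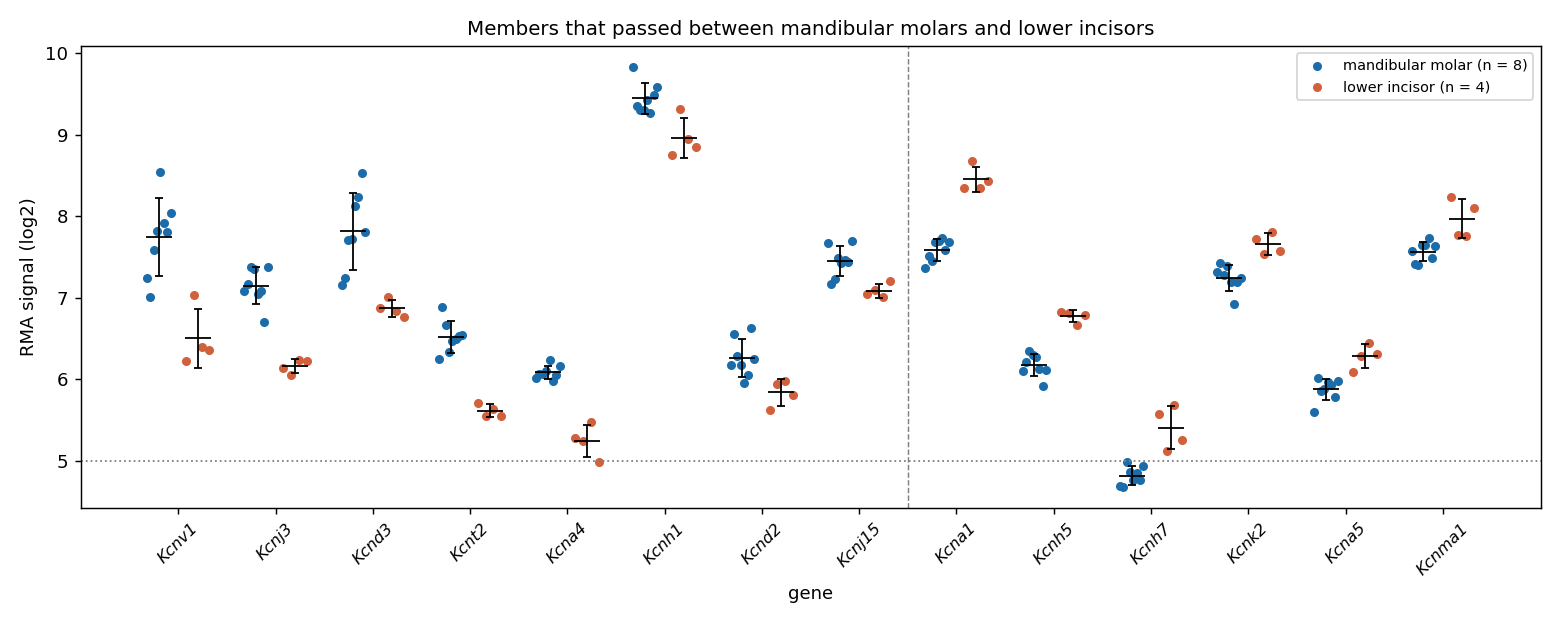
RMA signal (log2, vertical axis) of the 14 potassium channel genes that passed between 8 mandibular molar (blue) and 4 lower incisor samples (orange), with black bars for mean ± SD. Genes left of the dashed line were higher in mandibular molars and genes right of it lower, and the dotted line marks a signal of 5. *Kcna4*, *Kcnt2*, *Kcnd3* and *Kcnj3* lie wholly above the incisors and the 6 genes on the right wholly below.

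Outside the voltage-gated class, the change of largest size was that of *Kcnv1*, a silent subunit that joins Shab channels. It was at 7.01, 7.81 and 8.54 in mandibular molars and at 6.22, 7.03, 6.40 and 6.36 in lower incisors. Only lower incisor 2 reached the lowest molar sample (log2 fold change 1.24, a 2.37-fold difference, SE 0.24, adjusted p = 0.0132). Samples of the first set alone gave a difference of 0.91, which did not pass (adjusted p = 0.13).

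*Kcnj3*, a subunit of the G protein-gated channel of heart and brain, was at 6.70, 7.13 and 7.38 in mandibular molars and at 6.14, 6.05, 6.23 and 6.22 in lower incisors. All molars were above all incisors (log2 fold change 0.99, SE 0.11, adjusted p = 0.000298), and the difference within the first sample set was 1.08 (adjusted p = 0.000813). *Kcnt2*, a sodium-activated channel, was at 6.25, 6.51 and 6.89 in mandibular molars and at 5.71, 5.55, 5.64 and 5.55 in lower incisors. It likewise stood apart (log2 fold change 0.91, SE 0.10, adjusted p = 0.000226), with 0.93 within the first sample set (adjusted p = 0.0187). *Kcnj15*, an inward rectifier of kidney, was at 7.17, 7.45 and 7.69 in mandibular molars and at 7.04, 7.09, 7.01 and 7.20 in lower incisors. The groups overlapped through lower incisor 4 (log2 fold change 0.36, SE 0.10, adjusted p = 0.0623), and 6 of 12 fits that left out 1 sample lost the call (adjusted p 0.102 to 0.192), those without lower incisor 1, 2 or 3 or mandibular molar 5, 6 or 7. It did not pass within the first sample set either (0.31, adjusted p = 0.456), nor after median centring (adjusted p = 0.105) or with the sample set as a block (adjusted p = 0.218).

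*Kcnk2*, a 2-pore-domain channel opened by stretch and lipids, was at 6.92, 7.26 and 7.42 in mandibular molars and at 7.72, 7.53, 7.81 and 7.57 in lower incisors, without overlap (log2 fold change -0.42, SE 0.09, adjusted p = 0.0223). *Kcnma1*, the large-conductance calcium-activated channel, was at 7.40, 7.60 and 7.73 in mandibular molars and at 8.24, 7.77, 7.76 and 8.10 in lower incisors. The ranges nearly touched (log2 fold change -0.41, SE 0.10, adjusted p = 0.0409), and without lower incisor 1 the call was lost (-0.32, adjusted p = 0.144). Neither passed within the first sample set, at -0.31 (adjusted p = 0.17) for *Kcnk2* and -0.46 (adjusted p = 0.184) for *Kcnma1*. A second probe set of *Kcnma1* had a mean of 4.47 and was below the limit of 5. With the mean of both probe sets the difference was -0.23 and was not called (adjusted p = 0.181), nor was it called after median centring (adjusted p = 0.135).

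Without overlap, 4 of the 87 genes (4.6%) lay above and 8 (9.2%) below the incisors, against 1.92% and 1.77% of all probe sets tested. Those shares include probe sets without a gene symbol, and none is given here for genes with a single symbol. *Kcnh7*, which entered the test only through the incisors, is among the 8. The 8 included *Kcnk3*, an acid-sensitive 2-pore-domain channel, and *Kcnn3*, which did not pass. *Kcnk3* was at 6.93, 7.05 and 7.11 in mandibular molars and at 7.12, 7.34, 7.41 and 7.20 in lower incisors, but its log2 fold change of -0.23 (adjusted p = 0.0758) was under the 1.2-fold limit. *Kcnn3* had a log2 fold change of -0.22 (adjusted p = 0.146), and it passed with the sample set as a block (-0.31, adjusted p = 0.0124). Over the 87 genes 27 log2 fold changes were positive and 60 negative, with a median of -0.07, while 8698 were positive and 8611 negative over all genes tested, with a median of 0.00. The counts of the 87 genes were 35 and 52 after median centring of the samples, and 36 and 51 after quantile normalization, whereas over all genes they were 10418 and 6865 after centring and 8882 and 8400 after quantile normalization. In the values without further normalization, genes of the 2-pore-domain family were most often on the negative side, at 12 of 14, and ran between -0.42 and 0.15. Only *Kcnk2* of this family was called, and its sign counts after centring or quantile normalization are not given here. *Kcnk13*, a channel of this family in immune and glial cells, was at 5.64, 5.89 and 6.08 in mandibular molars and at 6.20, 6.09, 6.30 and 5.95 in lower incisors (log2 fold change -0.25, SE 0.09, adjusted p = 0.157).

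**Figure D3:**
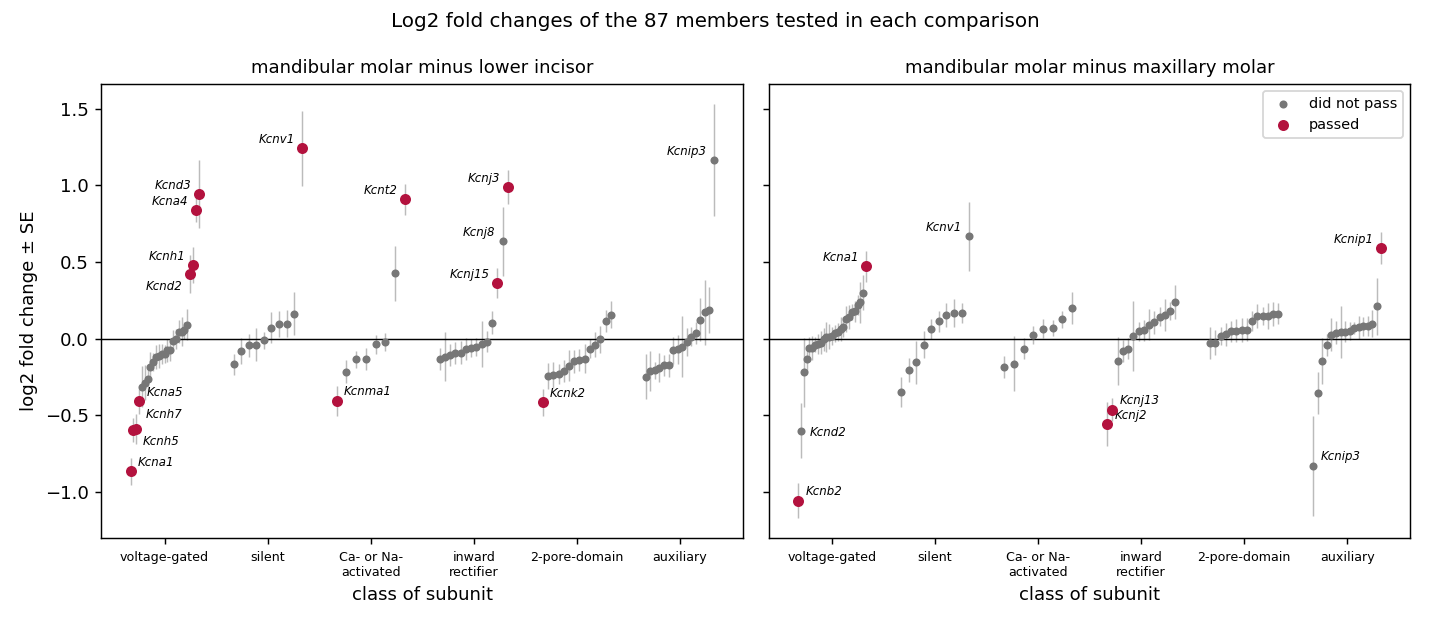
Log2 fold change ± SE (vertical axis) of the 87 potassium channel genes tested, by class of subunit (horizontal axis), for mandibular molars minus lower incisors on the left and mandibular minus maxillary molars on the right. Red points passed and grey points did not, and names mark genes that passed or lay beyond 0.55. The 14 red points on the left spread over 5 classes, and 5 red points appear on the right.

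The sequence around the start site was read for the genes with a RefSeq promoter, 250 bases before to 50 bases after the start, on GRCm38.p6. There were 92 promoters of 67 of the 88 genes, among 32851 promoters of all genes. CG dinucleotides numbered 10 or more in 43 of the 92 (46.7%) and in 43.5% of all promoters. Of the 67 genes, 41 had such a promoter and a median mean log2 level of 6.89, whereas the other 26 had a median of 6.01. Over all genes these medians were 8.56 (10032 genes) and 5.43 (5582 genes). The TATA motif TATAAA, searched on both strands, was in 5 of the 92 promoters (5.43%), 4 of them of inward rectifiers, and in 13.6% of all promoters. Promoters of genes that stood apart between the tooth types in opposite directions are shown with each CG in capitals. *Kcna4* (chr2:107290339-107290638, plus strand) and *Kcnj3* (chr2:55435720-55436019, plus strand) were higher in mandibular molars.
Kcna4: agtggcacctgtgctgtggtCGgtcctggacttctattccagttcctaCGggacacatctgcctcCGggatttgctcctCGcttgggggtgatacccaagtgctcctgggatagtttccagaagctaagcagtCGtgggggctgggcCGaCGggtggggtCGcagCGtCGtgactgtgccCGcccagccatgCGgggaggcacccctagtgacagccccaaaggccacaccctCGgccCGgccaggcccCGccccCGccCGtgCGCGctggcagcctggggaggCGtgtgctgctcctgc
Kcnj3: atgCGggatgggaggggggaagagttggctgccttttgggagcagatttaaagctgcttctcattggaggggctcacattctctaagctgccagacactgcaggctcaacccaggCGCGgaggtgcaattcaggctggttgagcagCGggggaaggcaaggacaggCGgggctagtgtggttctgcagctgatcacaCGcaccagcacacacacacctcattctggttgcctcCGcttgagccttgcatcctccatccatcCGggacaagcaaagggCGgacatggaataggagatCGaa
*Kcnh5* (chr12:75177283-75177582, minus strand) and *Kcnh7* (chr2:63184238-63184537, minus strand) were lower in mandibular molars, *Kcnh7* tested only through the incisor samples.
Kcnh5: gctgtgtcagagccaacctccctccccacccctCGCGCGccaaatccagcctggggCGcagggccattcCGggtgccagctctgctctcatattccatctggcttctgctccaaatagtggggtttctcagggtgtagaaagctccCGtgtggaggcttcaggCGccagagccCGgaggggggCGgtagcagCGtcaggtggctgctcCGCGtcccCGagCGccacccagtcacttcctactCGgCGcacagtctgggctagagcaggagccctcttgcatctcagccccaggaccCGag
Kcnh7: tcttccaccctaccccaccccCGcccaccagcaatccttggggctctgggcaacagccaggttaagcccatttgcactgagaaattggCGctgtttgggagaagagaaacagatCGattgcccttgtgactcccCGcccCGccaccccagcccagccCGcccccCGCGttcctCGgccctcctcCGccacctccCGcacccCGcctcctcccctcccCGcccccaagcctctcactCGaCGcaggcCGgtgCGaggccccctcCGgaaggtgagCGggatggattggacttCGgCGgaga
They held 20 CG dinucleotides in *Kcna4*, 10 in *Kcnj3*, 17 in *Kcnh5* and 21 in *Kcnh7*, and none held TATAAA. Among genes that passed, 6 of 7 promoters of genes higher in mandibular molars and 5 of 8 of genes lower there had 10 or more, so both directions included promoters rich in CG.

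The second comparison set mandibular against maxillary molars, teeth of the same type in opposing jaws. Among the 87 potassium channel genes tested, 2 were higher and 3 were lower in mandibular molars. By the same rule 1.01% of the 29068 probe sets tested were higher and 1.18% lower, and of the 17193 genes with a single symbol tested 1.4% and 1.59%. They were 1 voltage-gated and 1 auxiliary gene on the higher side, and 1 voltage-gated gene and 2 inward rectifiers on the lower side. None of the 10 silent, 8 calcium- or sodium-activated and 14 subunits of the 2-pore-domain family passed by limma over all samples of the pair or by the methods' t-test, with 4, 2 and 2 at an unadjusted p under 0.05 by limma. Of the silent subunits *Kcng1* passed when all 3 tooth types were fitted together (-0.35, adjusted p = 0.0989), and *Kcnv1* with the sample set as a block (1.00, adjusted p = 0.0393). Past a fold change of 2 were 0.0998% of probe sets upward and 0.0963% downward, and of the potassium channel genes only *Kcnb2*, downward.

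*Kcnb2*, a Shab channel of delayed rectifier type, had the largest difference. It was at 6.63, 6.96 and 7.22 in mandibular molars and at 8.32, 7.96, 7.91 and 7.86 in maxillary molars. The groups were separated by a wide gap (log2 fold change -1.06, a 2.08-fold difference, SE 0.11, adjusted p = 0.000532), and the value within the second sample set was -1.07 (adjusted p = 0.0178). Lower incisors, at 7.18, 7.08, 7.07 and 7.24, were near the mandibular molars (log2 fold change -0.19, adjusted p = 0.32). *Kcnb2* is also named in the study's own gene tables, which were drawn from these samples.

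*Kcnj13*, an inward rectifier of transporting epithelia, was at 5.45, 5.54 and 5.81 in mandibular molars and at 5.97, 5.93, 6.13 and 6.09 in maxillary molars. All mandibular samples were below all maxillary ones (log2 fold change -0.46, SE 0.07, adjusted p = 0.00832), also within the second sample set (-0.54, adjusted p = 0.00875). *Kcnj2*, the inward rectifier that stabilizes the resting potential of muscle, was at 6.03, 6.46 and 6.64 in mandibular molars and at 7.51, 6.95, 6.83 and 6.67 in maxillary molars. Maxillary molar 4 lay just above the highest mandibular sample (log2 fold change -0.56, SE 0.14, adjusted p = 0.0873). Of 12 fits that left out 1 sample 9 lost the call, with adjusted p 0.109 to 0.247, those without maxillary molar 1, 2 or 3 or mandibular molars 1 to 6 in turn, and it did not pass within the second sample set (-0.49, adjusted p = 0.267). The call was also lost under quantile normalization (adjusted p = 0.122), median centring (adjusted p = 0.117), the methods' t-test (adjusted p = 0.145), the fit of all tooth types (adjusted p = 0.135) and the sample set as a block (adjusted p = 0.53). The promoter of *Kcnj13* (chr1:87394680-87394979, minus strand) is shown, with each CG in capitals, for its few CG and its TATA motif.
Kcnj13: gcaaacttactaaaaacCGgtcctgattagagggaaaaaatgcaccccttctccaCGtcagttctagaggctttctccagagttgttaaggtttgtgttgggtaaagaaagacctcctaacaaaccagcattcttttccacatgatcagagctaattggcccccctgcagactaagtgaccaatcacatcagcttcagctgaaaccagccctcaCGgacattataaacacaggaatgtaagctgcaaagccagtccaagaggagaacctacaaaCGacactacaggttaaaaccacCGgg
It had 5 CG dinucleotides and a TATAAA at base 222 of the 300.

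*Kcnip1*, a calcium-binding partner of Shal channels, was at 6.03, 6.27 and 6.56 in mandibular molars and at 5.54, 5.67, 5.85 and 5.80 in maxillary molars, without overlap (log2 fold change 0.59, SE 0.10, adjusted p = 0.0157). The second sample set alone gave 0.49 (adjusted p = 0.0969), and with the sample set as a block the call was lost (0.49, adjusted p = 0.173). *Kcna1*, lower than in incisors, was higher than in maxillary molars, at 7.36, 7.63 and 7.73 in mandibular molars against 7.39, 7.17, 7.03 and 6.86 in maxillary molars. Maxillary molar 1 reached the mandibular range (log2 fold change 0.47, SE 0.10, adjusted p = 0.038). The second sample set gave 0.56 (adjusted p = 0.0696), and over all samples the call was lost without maxillary molar 2 (adjusted p = 0.108), 3 (adjusted p = 0.123) or 4 (adjusted p = 0.116). The means of *Kcna1* were lowest in maxillary molars and highest in incisors, as were those of all 12 muscle markers. Of these 10 were higher in mandibular than in maxillary molars, and *Myh3*, an embryonic myosin, had a log2 fold change of 2.14 (adjusted p = 0.00255). Their part in the difference of *Kcna1* was not tested.

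**Figure D4:**
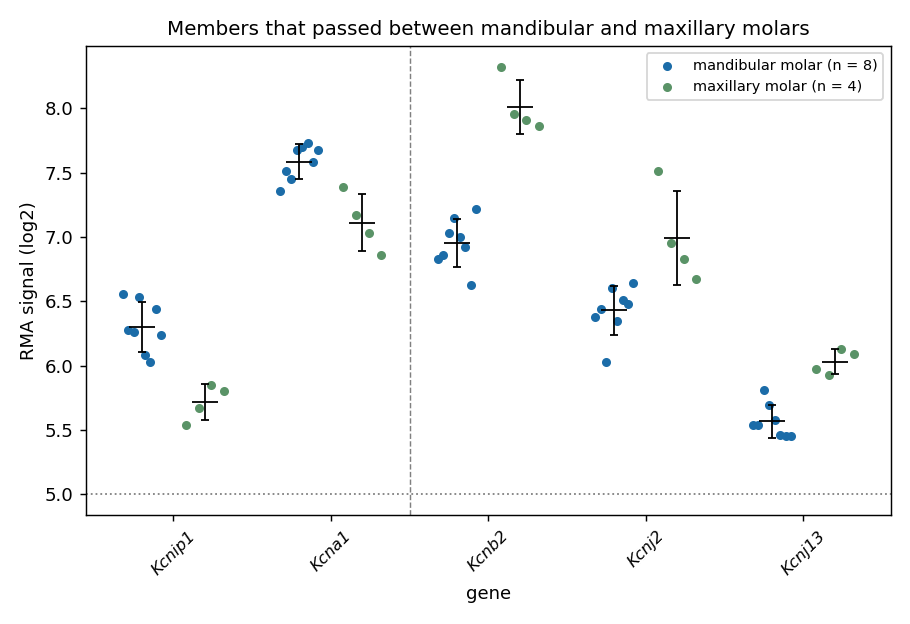
RMA signal (log2, vertical axis) of the 5 potassium channel genes that passed between 8 mandibular (blue) and 4 maxillary molar samples (green), with black bars for mean ± SD and a dotted line at a signal of 5. *Kcnip1* and *Kcna1*, left of the dashed line, were higher in mandibular molars, and *Kcnb2*, *Kcnj2* and *Kcnj13* were lower. *Kcna1* alone overlaps.

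Without overlap 2 of the 87 genes (2.3%) were above and 3 (3.45%) below the maxillary molars, against 2.08% and 2.02% of all probe sets tested. The gene without a call was *Kcnc4*, a Shaw channel, with a log2 fold change of 0.22 (adjusted p = 0.135). Among genes that did not pass, *Kcnd2* was at 5.95, 6.22 and 6.63 in mandibular molars and at 7.41, 7.01, 6.69 and 6.34 in maxillary molars (log2 fold change -0.60, SE 0.18, adjusted p = 0.136), and it passed in the fit of all tooth types (adjusted p = 0.0882). *Kcnv1* was at 7.12, 6.81, 7.15 and 7.22 in maxillary molars, with a log2 fold change of 0.67 (SE 0.23, adjusted p = 0.191) over all samples and of 1.00 within the second sample set, where it passed (adjusted p = 0.0404). Of the 87 log2 fold changes 59 were positive and 28 negative, with a median of 0.05, and over all genes tested 9453 were positive and 7740 negative, with a median of 0.02. Both comparisons share the mandibular molar samples, so the values of a gene in them are not independent.

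Some potassium channel genes differed between the sample sets within mandibular molars, in numbers close to the share of all probe sets. Between mandibular molars 1 to 4 and 5 to 8, which carry the same label, 3 of 86 potassium channel genes tested (*Kcnh7* and *Kcnj6* were below the limit of 5) were higher in 1 to 4 and 7 were lower by the same rule, against 4.49% and 7.29% of the 28936 probe sets tested. The split into 1 to 4 and 5 to 8 was seen in the values of these same arrays. Its adjusted p-values, here and below, are therefore descriptive and no independent test of the split. Of the potassium channel genes, *Kcnip3* had the largest difference. It was at 9.56, 9.32, 9.80 and 10.03 in mandibular molars 1 to 4 and at 10.87, 10.93, 11.05 and 10.96 in mandibular molars 5 to 8 (log2 difference -1.27, SE 0.14, adjusted p = 0.00711). Lower incisors, at 9.35, 9.03, 8.46 and 9.76, were near mandibular molars 1 to 4, and maxillary molars, at 11.04, 11.11, 11.21 and 11.23, were near mandibular molars 5 to 8. Its difference over all samples was 1.16 from incisors (adjusted p = 0.116) and -0.83 from maxillary molars (adjusted p = 0.246), and within the sets it was 0.53 and -0.19, with no call.

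The other genes lower in mandibular molars 1 to 4 were *Kcnj8* (-0.71, adjusted p = 0.0414), *Kcnd3* (-0.72, adjusted p = 0.0505), *Kcnv1* (-0.66, adjusted p = 0.0875), *Kcnmb4* (-0.53, adjusted p = 0.0196), *Kcnab1*, a beta subunit of Shaker channels (-0.38, adjusted p = 0.0996), and *Kcnd1*, a Shal channel (-0.30, adjusted p = 0.0233). Higher there were the accessory subunit *Kcne4* (0.58, adjusted p = 0.0232), *Kcnq5*, a channel of the M-current (0.42, adjusted p = 0.0348), and the silent subunit *Kcns2* (0.28, adjusted p = 0.0453). *Kcnj8* was at 8.31, 7.98, 7.84 and 8.55 in mandibular molars 1 to 4 and at 8.71, 8.72, 8.90 and 9.18 in 5 to 8. Its difference from incisors over all samples was 0.63 (adjusted p = 0.162), and within the first sample set it was 0.28 (adjusted p = 0.785). Of 8 mural cell markers 3 were lower in mandibular molars 1 to 4, and their part in the difference of *Kcnj8* was not tested. Its sulfonylurea receptor partner *Abcc9* averaged 8.11 ± 0.22 in mandibular molars (SD, n = 8) and 7.90 ± 0.14 in lower incisors (SD, n = 4), with a log2 fold change of 0.21 (adjusted p = 0.353). Within the first sample set that of *Abcc9* was 0.07. Its difference between mandibular molars 1 to 4 and 5 to 8 is not given here, so whether it moved with *Kcnj8* there is not shown. For *Kcna1* and *Kcnb2* the difference between mandibular molars 1 to 4 and 5 to 8 was -0.18 (adjusted p = 0.187) and 0.02 (adjusted p = 0.924).

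**Figure D5:**
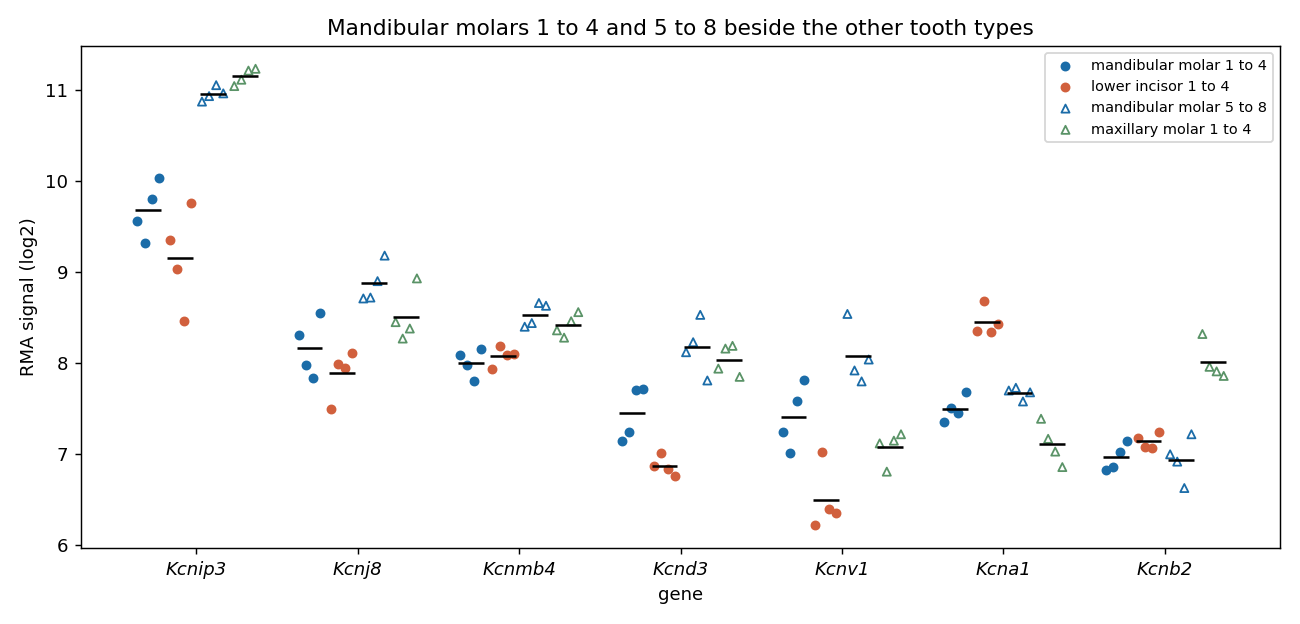
RMA signal (log2, vertical axis) of 7 potassium channel genes in mandibular molars 1 to 4 and lower incisors (filled circles) and in mandibular molars 5 to 8 and maxillary molars (open triangles), with bars for means of 4 samples. *Kcnip3*, *Kcnj8*, *Kcnmb4*, *Kcnd3* and *Kcnv1* differ between mandibular molars 1 to 4 and 5 to 8, whereas *Kcna1* and *Kcnb2*, at -0.18 and 0.02, were not called.

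Of the 8 genes with the highest means only *Kcnh1* was called in either comparison of tooth types. *Kcnk6*, a 2-pore-domain channel of endosomes and vessels, was at 8.58, 8.81 and 8.98 in mandibular molars, 8.82, 8.64, 8.70 and 8.94 in lower incisors and 8.67, 8.78, 8.67 and 8.75 in maxillary molars, overlapping throughout. *Kcnk1* had log2 fold changes of 0.15 from incisors (adjusted p = 0.363) and 0.16 from maxillary molars (adjusted p = 0.256), and *Kcnmb4* of 0.19 (adjusted p = 0.511) and -0.15 (adjusted p = 0.601). *Kcng1* had a log2 fold change of -0.35 from maxillary molars (SE 0.10, adjusted p = 0.124), and the silent subunit *Kcng2* of -0.17 from incisors (SE 0.07, adjusted p = 0.208). *Kcnn4*, the intermediate-conductance calcium-activated channel of blood and epithelial cells, was at 6.80, 7.21 and 8.01 in mandibular molars and at 6.90, 6.75, 6.77 and 6.99 in lower incisors (log2 fold change 0.42, SE 0.18, adjusted p = 0.228). From maxillary molars, *Kcnt2* had a log2 fold change of 0.20 (adjusted p = 0.338), *Kcnn3* of -0.18 (adjusted p = 0.244) and *Kcnab1* of -0.35 (adjusted p = 0.241). The 2 probe sets of *Kcna2* had log2 fold changes of -0.04 and 0.15 from maxillary molars and those of *Kcnh8* 0.01 and -0.01, all without a call.

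Genes whose products act with potassium channels were read from lists of other ion transport genes. Of 13 partner proteins tested 1 was higher in mandibular molars than in incisors, *Cntnap2*, which clusters Shaker channels on axons (log2 fold change 0.30, adjusted p = 0.0528). Of 12 genes of the sodium-potassium pump and cation-chloride cotransporters 1 was higher, the pump subunit *Atp1b1* (0.70, adjusted p = 0.0774), and 1 lower, *Slc12a2*, a cotransporter that loads cells with chloride (-0.45, adjusted p = 0.00669). Of 11 genes of voltage-gated and leak sodium channels, *Nalcn*, the leak channel, was higher (0.76, adjusted p = 0.000331), as was the beta subunit *Scn3b* (0.69, adjusted p = 0.0939). *Nalcn* and *Slc12a2* also passed within the first sample set, at 0.70 and -0.48. There *Cntnap2* (0.32, adjusted p = 0.233), *Atp1b1* (0.52, adjusted p = 0.571) and *Scn3b* (0.37, adjusted p = 0.637) did not pass. The call of *Scn3b* was also lost with no limit on low signals, under quantile normalization or median centring and by the methods' t-test (adjusted p 0.106 to 0.15), and that of *Atp1b1* by the methods' t-test (adjusted p = 0.132). With the sample set as a block *Scn3b* (adjusted p = 0.28) and *Atp1b1* (adjusted p = 0.27) were lost as well. None of 5 cyclic nucleotide-gated or pacemaker channels passed, and none was at an unadjusted p under 0.05. Between mandibular and maxillary molars no gene of the 4 lists passed by limma over all samples of the pair or by the methods' t-test, with 5 of 14, 2 of 12, 3 of 11 and 1 of 5 at an unadjusted p under 0.05 by limma. Within the second sample set, and with the set as a block, 1 sodium channel gene was lower.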

How the data were processed

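The 16 arrays, 1 for each pool of 4 tooth germs, were read from the table of processed values. Its log2 values were produced by the authors by RMA (Affymetrix Expression Console 1.1), which subtracts background, equalizes the arrays' distributions and summarizes each probe set. They were used without another normalization. RMA draws low signals together, so differences of dim genes are understated. An array gives no read depth, and precision is limited by the 8 and 4 samples of a group. A single gene symbol was attached to 21789 of the 35556 probe sets, several symbols to 1621 and no symbol to 12146.

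Probe sets exceeding 5 in any compared sample were fitted with lmFit and eBayes (limma 3.58.1, R 4.3.3) on the samples of each pair of tooth types, two-sided, with Benjamini-Hochberg adjustment over all probe sets kept. The fit was tested on simulated data. Alternatives were a limit of 6 or none, quantile normalization, median centring, the t-test of the study's methods, robust variances, a fit of all tooth types, the sample set or replicate number as a block, the mean of a gene's probe sets and leaving out each sample. The study's text leaves out 1 incisor sample, for a washing problem and high background, without naming it. All 4 were used, so the incisor values here include that array. The gene sets, lists and tests were chosen with earlier results of these data known. Genes named with values are those that passed in either comparison, those of the study's tables, the 8 with the highest means, of each class the 2 with the largest changes in each comparison and the 1 with the highest mean, and those whose probe sets differ. Of each list of other transport genes up to 3 that passed are named. *Kcnk3*, *Kcnc4*, *Abcc9* and the genes that differ between mandibular molars 1 to 4 and 5 to 8 were named after their values were seen. Promoters are those of RefSeq on GRCm38.p6. Some genes of this naming are not reported here.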

Additional observations from a re-analysis of the deposited data

Results flagged for a closer look

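In 93 combinations of a named potassium channel gene and a tooth type, 2 held a sample far from the others of its group by Dixon's test, and chance alone flags about 1 in 20 groups. *Kcnk2* had 6.92 in mandibular molar 6, against 7.19 to 7.42 in the other 7 samples, a gap of 0.535 of the range. *Kcng1* had 8.58 in maxillary molar 3, against 8.37 to 8.40 in the other 3 samples, a gap of 0.848 of the range.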

How the results depend on the processing

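Leaving out 1 sample at a time, the count of potassium channel genes higher in mandibular molars than in incisors (8 over all samples) ran between 4 and 10 (5 without lower incisor 1, 4 without lower incisor 3). That of lower genes (6) ran between 6 and 9 (9 without lower incisor 4). Without lower incisor 4, 4.19% of all probe sets were called higher and 3.56% lower, against 2.75% and 2.18% over all samples. Against maxillary molars the higher genes (2) ran between 1 and 4 (1 without maxillary molar 2, 3 or 4, and 4 without mandibular molar 7) and the lower ones (3) between 2 and 4. Within the first sample set, which holds 4 samples of each group, the incisor counts were 3 higher and 2 lower. The numbers in the labels were not taken as pairs, since the labels tie them to no shared litter or day and not every same-numbered pair had a correlation of deviations over 0.1 (0.093 to 0.668 for incisors, 0.01 to 0.391 for maxillary molars), although all were positive. With the replicate block, over samples 1 to 4, the count of higher genes against incisors was 4, and against maxillary molars 9 were higher and 14 lower, where 9.12% and 11.1% of all probe sets were called and mandibular molars 1 to 4 are of the other sample set. In that replicate block *Kcnj8* was at -0.34 (adjusted p = 0.0465), against 0.02 over all samples (adjusted p = 0.972), the only change of sign with a call among the named potassium channel genes. Every other count under the other filters, normalizations, variances and probe set choices stayed within 1.5 times its own. The count of genes that differ between mandibular molars 1 to 4 and 5 to 8 (10) ran between 6 and 12 when 1 sample was left out (6 without mandibular molar 1), in settings chosen after seeing the data. Signals near 5 limit what could be seen for dim genes such as *Kcnh7*.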
